A study of Mus musculus with 8 samples.

Results

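Replication-dependent histone genes are the clustered genes that supply the bulk histones of newly made chromatin. They were taken as the protein-coding rows of the count files whose mouse symbol begins with Hist1h, Hist2h, Hist3h or Hist4h, which gave 67 of 54446 genes. Of these, 6 encode the linker histone H1, 18 encode H2A, 18 encode H2B, 12 encode H3 and 13 encode H4. The Hist1 cluster on chromosome 13 holds 54 of them, Hist2 on chromosome 3 holds 10, Hist3 on chromosome 11 holds 2, and Hist4 on chromosome 6 holds 1. The symbol rule also met 3 pseudogenes, which were left out.

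The study measured nuclear RNA in mouse embryonic stem cells of strain C57BL/6 after loss of Mettl14 or Mettl3, the subunits of the enzyme that writes N6-methyladenosine on RNA. Each of the 2 genes had a CKO group and a control group of its own, with 2 libraries in each of the 4 groups. CKO is the labels' term, and the series calls these samples knockouts. All groups grew in medium with 15% serum, LIF, the GSK3 inhibitor CHIR99021 and the MEK inhibitor PD0325901. RNA of the nuclear fraction was depleted of ribosomal RNA and sequenced with a stranded total RNA kit, and no selection for poly(A) is named. The sources used here do not name the exons deleted, the driver of deletion, its timing or the number of clones. Whether the paired libraries of a group were grown separately is not stated, so each p-value covers only the spread of these libraries, which can be technical.

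Most animal mRNAs end in a poly(A) tail. Replication-dependent histone mRNAs instead end just after a short stem-loop, which the protein SLBP binds and the U7 small nuclear ribonucleoprotein helps to cut. Their transcription rises in S phase, when NPAT at the histone locus body turns the clusters on, and the mRNAs are degraded quickly when DNA synthesis stops. Embryonic stem cells divide fast and spend much of the cycle in S phase.

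The stem-loop is the sequence these genes share, and it was searched for after the stop codon in GENCODE M21 transcripts (mm10). The word searched, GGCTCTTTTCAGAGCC on the transcribed strand with up to 3 differences, is the most frequent word of 16 bases with complementary arms of 6 bases after the members' stop codons. Of the 67 gene models, 15 were too short after the stop codon to hold it. Among the other 52, 43 had a match, 25 of them exact and 7 with 1 difference, at a median of 31 bases from the stop codon (range 21 to 58). In 19062 other protein-coding genes, 22 had a match within 100 bases of the stop codon (0.115%). Not every gene whose change is described next had a match: Hist1h4b was searched and had none. The matches below belong to some of the described genes, with the 16 matched bases in capitals and 5 flanking bases on each side.
Hist1h1c, chr13:23739507-23739532, plus strand: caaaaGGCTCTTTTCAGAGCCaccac
Hist1h2ab, chr13:23751567-23751592, plus strand: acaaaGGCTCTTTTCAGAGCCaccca
Hist2h2ac, chr3:96220413-96220438, minus strand: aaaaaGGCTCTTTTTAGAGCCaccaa
Hist1h2bm, chr13:21722501-21722526, plus strand: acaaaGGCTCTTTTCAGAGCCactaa
Hist1h2bk, chr13:22036295-22036320, plus strand: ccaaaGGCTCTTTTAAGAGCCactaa
Hist1h3d, chr13:23576239-23576264, plus strand: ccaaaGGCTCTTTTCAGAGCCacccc
Hist1h4f, chr13:23551286-23551311, minus strand: tcaaaGGCCCTTTTCAGGGCCaccca
The H4 loop shown carries a GGCCC stem in place of GGCTC, with the matching change on the other arm. Members that fell and members that rose after loss of Mettl14 both carry the exact consensus, as Hist1h1c and Hist1h2ab show.

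Total counts per library ran from 17235889 to 20086128. Mettl14 itself stood at 58.3 and 55.0 CPM (counts scaled by library size with TMM factors) in its control and, in its CKO, at 27.8 and 30.2. Mettl3 stood at 37.9 and 36.1 CPM in Mettl3 control and at 19.8 and 18.6 in Mettl3 CKO. Mettl14 was also low in Mettl3 control, at 30.1 and 26.7 CPM. The labelled cell type was checked against its markers: the summed level of 15 embryonic stem cell markers was 4278 to 4281 CPM in Mettl14 control, 3251 to 3256 in Mettl14 CKO, 1822 to 1837 in Mettl3 control and 1719 to 1725 in Mettl3 CKO, and none of them was at 0 in all libraries. Over the same libraries, the summed level of 21 fibroblast markers ran the other way, from 3414 to 3430 CPM in Mettl14 control through 4983 to 4989 in Mettl14 CKO and 12893 to 13233 in Mettl3 control to 14730 to 14878 in Mettl3 CKO. The part of this difference in the histone results was not tested, and fewer cells of a type and less RNA per cell cannot be told apart in bulk samples.

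Together, the 67 genes held between 0.151% and 0.311% of all counts. Their summed level was 3678 ± 36.1 CPM in Mettl14 control (SD, n = 2), 3102 ± 20.3 in Mettl14 CKO, 1345 ± 15.6 in Mettl3 control and 1416 ± 13 in Mettl3 CKO. H1 genes made up the largest share in every library, from 51.1% to 55.7% of the histone total. Per kilobase of gene model, the highest mean level in Mettl14 control was that of the H1 gene Hist1h1a, at 591.7 ± 13.5 CPM per kb there and 138.4 ± 6.2 in Mettl3 control. The H1 genes Hist1h1b (390.2 ± 3.7 CPM per kb) and Hist1h1c (304.1 ± 3.6) and the H2A gene Hist1h2an (286.3 ± 5.3) followed in that group. The 10 Hist2 genes summed to 249.5 CPM in Mettl14 control, 160.7 in Mettl14 CKO, 75.3 in Mettl3 control and 82.1 in Mettl3 CKO. Summed levels were not tested. Models that stop at the coding region are shorter than the RNA, which raises their value per kilobase. Models that run far past the stem-loop, as that of Hist1h1d does by 4884 bases and that of Hist1h1c by 840, can have it lowered. Of the 67 genes, 63 passed the filter on low counts. The other 4 were Hist2h2aa1 and Hist2h3c1, with 0 counts in every library, and Hist1h2ap and Hist1h2br, with at most 0.427 CPM in any library.

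**Figure D1:**
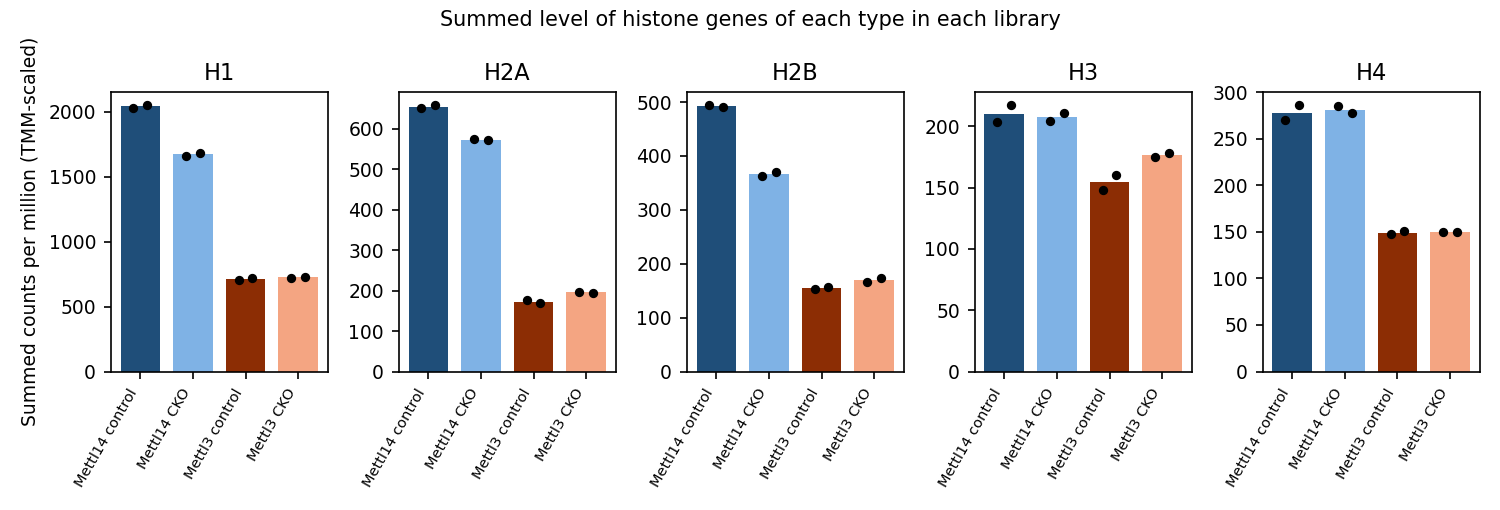
Summed level of the histone genes of each type, in CPM, by group. Bars are the means of 2 libraries and dots are the libraries. With TMM scaling, every type was higher in the Mettl14 lines than in the Mettl3 lines. For H3 this rested on the scaling. As a share of all counts, H3 held 0.0170% and 0.0182% in Mettl14 control and 0.0169% and 0.0184% in Mettl3 control. H3 ranged only from 154.5 in Mettl3 control to 210.5 in Mettl14 control.

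In Mettl14 CKO, all 6 H1 genes and 10 of 17 tested H2B genes were lower than in Mettl14 control and no gene of either type was higher, though with raw library totals 1 H1 gene was higher and 2 lower, and 1 H2B gene was higher and 5 lower. H2A genes went both ways, with 7 higher and 5 lower of 16. H3 had 2 higher and 3 lower of 11, and H4 had 3 higher and 1 lower of 13. In all, 12 of 63 members were called higher and 25 lower at an adjusted p under 0.05 (edgeR's quasi-likelihood test, Benjamini-Hochberg over all 21782 genes tested), beside 40.4% of all genes called, 18% higher and 22.4% lower. The median log2 fold change was −0.17 over members and 0.03 over all genes tested, a gap of −0.21. With raw library totals in place of TMM scaling the median of all genes moved by 0.20 and the members' median became 0.03. Scaling moves all genes alike and so can hardly change the gap. The gap was −0.12 with a minimum count of 30 and −0.25 without the filter on low counts. Of the 37 calls, 14 (4 higher and 10 lower) were kept under all 18 alternative fits, and the genes described first below come from them.

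The largest H1 change was that of Hist1h1c, the gene for the somatic linker histone H1.2. Its level was 478.5 and 470.4 CPM in control libraries and 312.7 and 312.9 in CKO libraries, which did not overlap. The log2 fold change was −0.60 ± 0.03 (SE, adjusted p = 3.6e-42). Hist1h1a fell from 431.3 and 445.5 CPM to 354.0 and 351.2, by 0.31 on the log2 scale (SE 0.03, adjusted p = 1.0e-17). Hist1h1d, Hist1h1e and Hist1h1b changed by −0.14, −0.15 and −0.22, and these 3 calls ended with raw library totals, where Hist1h1d was called higher (0.07). Hist1h1d, the highest of the H1 genes there in CPM not corrected for length, stood at 615.5 and 635.4 CPM in the control libraries against 563.2 and 573.2 in the CKO libraries. The sixth gene, Hist1h1t, encodes the linker histone of spermatocytes and lay at 2.7 to 5.3 CPM in the Mettl14 lines; its call (adjusted p = 0.0496 by edgeR) ended under 8 of 18 alternatives, among them the fits that left out control replicate 1 or CKO replicate 2. The type median of H1 was −0.27, and −0.06 with raw totals.

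H2B genes gave the lowest type median, −0.44 (−0.24 with raw totals). Hist1h2bm stood at 46.0 and 43.7 CPM in the control libraries and at 21.2 and 20.7 in the CKO libraries, a log2 fold change of −1.10 ± 0.08 (adjusted p = 4.4e-25). Hist1h2be fell from 68.1 and 64.6 CPM to 42.4 and 44.5 (−0.61 ± 0.06, adjusted p = 1.4e-16). Hist1h2bb, Hist2h2bb and Hist1h2bk also fell under every fit, by 0.51, 0.50 and 0.47 on the log2 scale. As a share of all histone counts, which no scaling factor alters, H2B took 13.5% and 13.3% in the 2 Mettl14 control libraries and 11.8% and 11.9% in the 2 Mettl14 CKO libraries.

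H2A genes, whose protein pairs with H2B in the nucleosome, ranged from −1.12 to 0.92 in log2 fold change. Hist2h2ac fell the most of all members: it stood at 113.7 and 113.6 CPM in the control libraries and at 52.2 and 52.5 in the CKO libraries, a log2 fold change of −1.12 ± 0.05 (adjusted p = 1.7e-42). Hist1h2af fell from 101.3 and 100.4 CPM to 56.9 and 57.7 (−0.82 ± 0.05, adjusted p = 2.6e-29), and Hist2h2ab fell from 55.4 and 53.5 CPM to 41.1 and 41.5 (−0.40 ± 0.07). In the other direction, Hist1h2ab rose from 17 and 16.4 CPM to 25.7 and 25.2 (0.61 ± 0.10, adjusted p = 3.7e-08), Hist1h2ai from 21.3 and 26.3 to 36.1 and 34.0 (0.56 ± 0.09), and Hist1h2ag from 27.2 and 27.6 to 35 and 35.3 (0.36 ± 0.08). These 6 genes kept their calls in all 18 alternatives. Their libraries did not overlap between the groups. This is a description only, since the share of all genes for which it holds was not counted. Hist1h2ac, the highest H2A gene of the Mettl14 lines in CPM not corrected for length, lay at 123.2 and 131.3 CPM in control and 127.1 and 128.9 in CKO, where the groups overlapped.

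H3 and H4 genes, which encode the central pair of nucleosome histones, are given by their sums first. The summed H3 level was 210.5 ± 9.5 CPM in Mettl14 control against 207.8 ± 4.4 in its CKO, and the summed H4 level was 277.9 ± 11.4 and 281.3 ± 5.0. In H4, Hist1h4b rose from 10.7 and 11.8 CPM to 15.2 and 16.9 (0.52 ± 0.11, adjusted p = 6.6e-05), which every alternative kept. Hist1h4f was lower at −0.39 ± 0.09; this call ended without Mettl14 control replicate 2 and with raw totals. In H3, Hist1h3g (0.36) and Hist1h3e (0.21) were called higher and Hist1h3i (−0.38), Hist1h3b (−0.30) and Hist1h3c (−0.24) lower, and each of these calls ended with DESeq2. Of these, Hist1h3e also ended without control replicate 1 or CKO replicate 2, Hist1h3i without control replicate 1 or CKO replicate 1, Hist1h3b without control replicate 2 or CKO replicate 1, Hist1h3g without CKO replicate 2, and Hist1h3c without 3 of the 4 libraries (all but CKO replicate 2).

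**Figure D2:**
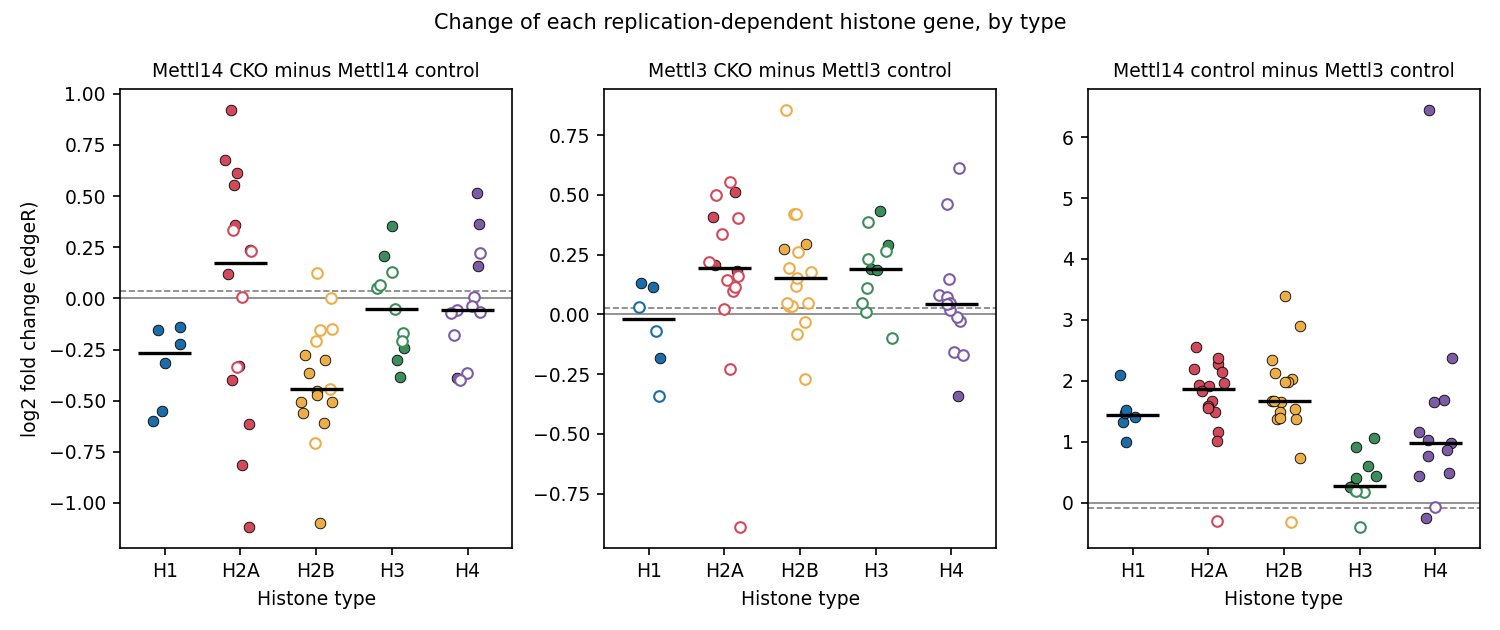
log2 fold change of each of the 63 tested histone genes, by histone type, in 3 comparisons with separate vertical axes. Filled points were called at an adjusted p under 0.05, open points were not, black bars are type medians and the dashed line is the median of all genes tested; in the first panel H1 and H2B lie mostly below 0 while H2A reaches from −1.12 to 0.92.

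**Figure D3:**
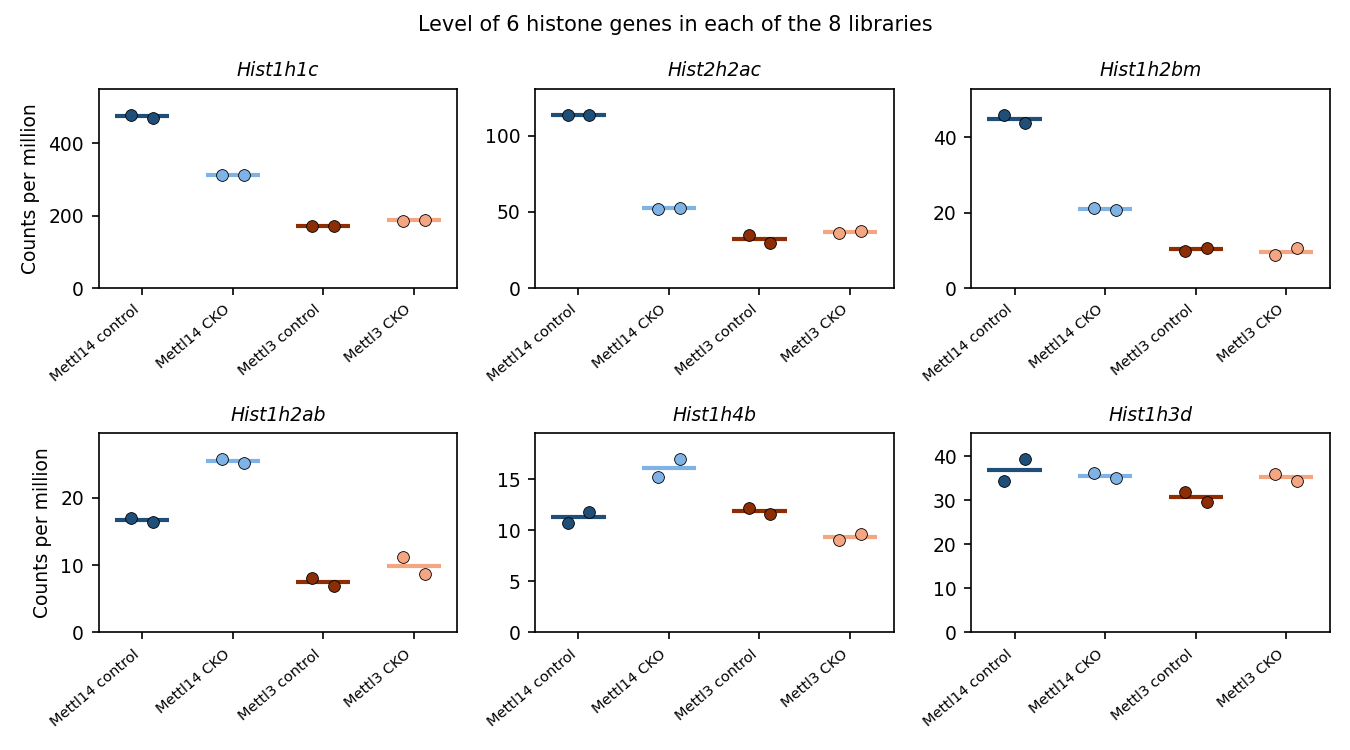
Level of 6 histone genes in CPM in each library, with lines at the mean of the 2 libraries of a group. Hist1h1c, Hist2h2ac and Hist1h2bm are lower in Mettl14 CKO than in Mettl14 control, Hist1h2ab and Hist1h4b are higher, and the Mettl14 libraries of Hist1h3d overlap.

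Many H2A and H2B genes lie head to head and share the stretch between their starts. Within 1000 bases, 13 such pairs were found, 12 of them an H2A with an H2B, of which 11 had both genes tested. In Mettl14 CKO, 3 of the 11 pairs had a called rise of the H2A gene and a called fall of the H2B gene, and 2 had both genes called lower. Hist1h2ai (0.56) and Hist1h2bl (−0.56) start 278 bases apart, Hist1h2ad (0.68) and Hist1h2bf (−0.45) 184 bases apart, and Hist1h2ah (0.24) and Hist1h2bk (−0.47) 301 bases apart. Of these 6 genes, Hist1h2ai and Hist1h2bk kept their calls in all alternatives, and the others ended with DESeq2. Hist1h2bl and Hist1h2ah also ended without Mettl14 control replicate 1 or Mettl14 CKO replicate 1, Hist1h2ad without either library numbered 2 of that comparison, and Hist1h2bf without any 1 of its 4 libraries. A pair on chromosome 3 was uneven the other way: Hist2h2ac fell by 1.12 while its partner Hist2h2be, 238 bases away and at 2.8 to 3.2 CPM in the Mettl14 lines, was not called (0.12 ± 0.24). Each member of a pair was tested alone, and the difference between partners was not tested.

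The starts of an H2A gene that fell and an H2A gene that rose are shown from RefSeq (GRCm38.p6), 250 bases before to 50 after the annotated start, to show what the shared stretch holds. Capitals mark matches on either strand to the TATA box (TATAAA), the CCAAT box (its own letters) and the octamer (ATTTGCAT), and matches of different motifs were allowed to overlap.
Hist2h2ac, chr3:96220831-96221130, minus strand: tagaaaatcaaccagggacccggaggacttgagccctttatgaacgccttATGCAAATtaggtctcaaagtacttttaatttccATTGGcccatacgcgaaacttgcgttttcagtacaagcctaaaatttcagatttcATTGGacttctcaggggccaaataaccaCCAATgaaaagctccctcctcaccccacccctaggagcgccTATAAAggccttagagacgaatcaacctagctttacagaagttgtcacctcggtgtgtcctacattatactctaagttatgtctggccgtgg
Hist1h2ai, chr13:21716162-21716461, plus strand: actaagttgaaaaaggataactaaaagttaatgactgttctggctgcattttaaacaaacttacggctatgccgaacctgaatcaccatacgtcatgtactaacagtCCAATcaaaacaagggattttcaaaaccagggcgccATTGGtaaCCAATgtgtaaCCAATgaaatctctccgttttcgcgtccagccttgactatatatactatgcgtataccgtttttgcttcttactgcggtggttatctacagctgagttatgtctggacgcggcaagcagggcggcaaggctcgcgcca
Both windows hold CCAAT, and the Hist2h2ac window also holds TATAAA and the octamer. Other H2A genes described above were mixed. Hist1h2ab, which rose, holds TATAAA and the octamer, and Hist1h2ag, which rose, holds neither. Hist1h2af, which fell, holds neither, and Hist2h2ab, which fell, holds TATAAA only. Whether a motif goes with the direction of change was not tested. Among 61 members with a promoter entry, TATAAA was present in 35 (57.4%, against 14.2% of the 27025 promoters of the table), and CCAAT in 52 (85.2%, against 37.9%). CCAAT was in every H1, H2A, H2B and H3 window and in 3 of 12 H4 windows. The octamer was in 7 of 17 H2A and 6 of 16 H2B windows and in none of the others (1.75% of all promoters). A match is a description of the letters and not of a bound site.

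**Figure D4:**
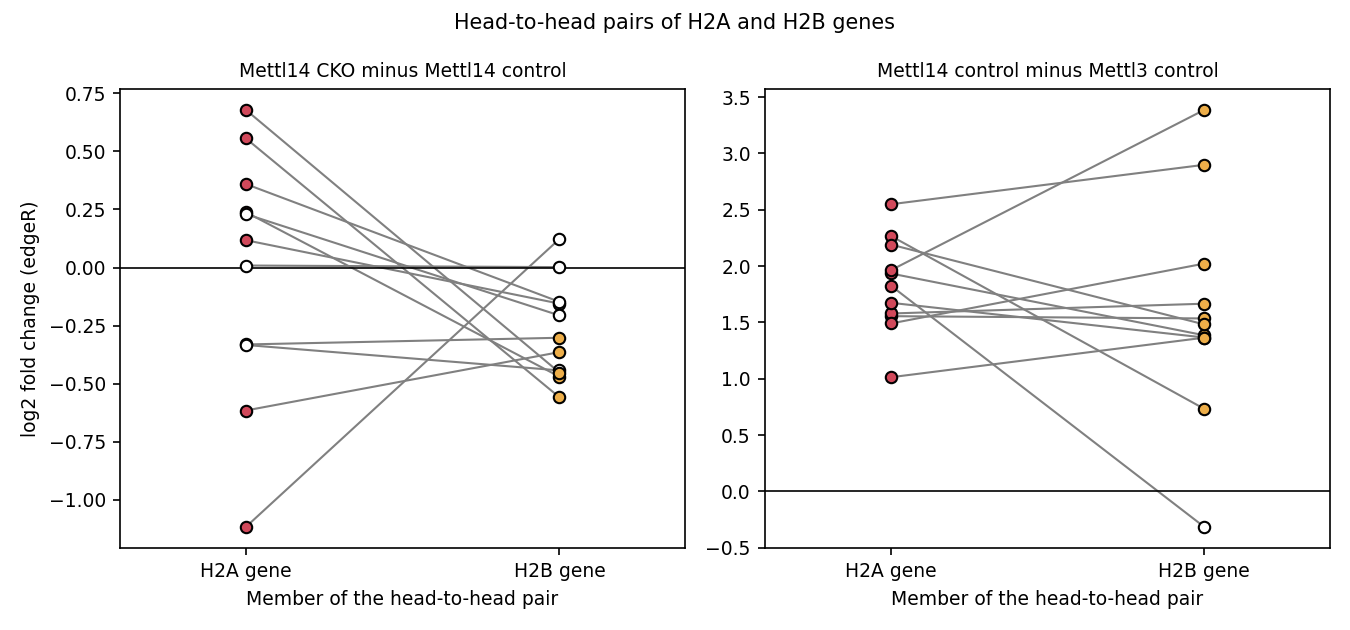
log2 fold change of the H2A and the H2B gene of each of 11 head-to-head pairs, joined by a line; filled points were called. On the left, Mettl14 CKO against its control, the H2A genes spread from −1.12 to 0.68; on the right, between the controls, every gene but Hist2h2be (−0.32) is above 1 or, for Hist1h2bc, at 0.73.

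Fewer members were called with loss of Mettl3, and 1 of 14 calls was kept under all alternatives. In Mettl3 CKO, 12 of 63 members were called higher and 2 lower than in Mettl3 control, beside 20.9% of all genes called, 15.1% higher and 5.78% lower, and the members' median log2 fold change was 0.12 against 0.03 for all genes. The higher count fell to 5 with RLE scaling, 3 with DESeq2 and 1 with upper-quartile scaling, which moved the median of all genes by −0.11. The gap between the medians was 0.09 in the main fit, and scaling can hardly change it. With a minimum count of 30 the gap was 0.045. Without the filter on low counts, the higher count rose to 21, and the median and the gap both rose to 0.22. Hist1h2ak, an H2A gene, alone kept its call in every alternative: it rose from 13.7 and 14.6 CPM to 20.9 and 19.5, a log2 fold change of 0.51 ± 0.09 (adjusted p = 2.7e-06). Hist1h3b rose from 15.9 and 21.2 CPM to 26.7 and 23.4 (0.43 ± 0.11, adjusted p = 0.0049), a call that ended with upper-quartile scaling and raw totals. Hist1h1b, the gene for linker histone H1.5, fell from 113.5 and 117.3 CPM to 101.5 and 101.9 (−0.18 ± 0.04, adjusted p = 7.5e-05), and that call ended when low-count genes were kept. The other lower gene was Hist1h4b, at 12.1 and 11.6 CPM in control and 9.1 and 9.7 in CKO (−0.34 ± 0.12, adjusted p = 0.027), a call that ended without any 1 of the 4 Mettl3 libraries, without Mettl14 control replicate 2 or Mettl14 CKO replicate 1, without the low-count filter and with DESeq2. By type, the calls were 2 higher and 1 lower in H1, 4 higher in H2A, 2 higher in H2B, 4 higher in H3 and 1 lower in H4.

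The Mettl14 change minus the Mettl3 change was tested as an interaction contrast in edgeR. It was lower for 21 of 63 members and higher for 3, beside 33.2% of all genes called, 20.5% lower and 12.7% higher, with a median of −0.24 over members and 0.02 over all genes. With raw totals the counts were 9 lower and 14 higher, the members' median was 0.05 and the median of all genes 0.31. The gap between the medians was −0.26 in the main fit, and scaling can hardly change it. With a minimum count of 30 the gap was −0.12, and without the filter on low counts −0.58. H2B held 8 of the lower calls, and H1, H2A and H3 held 4 each. Among the differences kept in all 17 alternatives were those of Hist2h2ac (−1.32 ± 0.08, adjusted p = 3.1e-30), Hist1h2bm (−1.02 ± 0.14), Hist1h2af (−0.96 ± 0.09) and Hist1h1c (−0.73 ± 0.04). Hist1h2ak differed by −0.85 ± 0.12, with a fall in Mettl14 CKO (−0.33, not called with raw totals) and a rise in Mettl3 CKO (0.51). Hist1h4b differed the opposite way (0.86 ± 0.16, adjusted p = 6.2e-06), with 0.52 in Mettl14 CKO and −0.34 in Mettl3 CKO.

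The controls differed in more members than either knockout did from its own control. Of 63 members, 55 were higher in Mettl14 control than in Mettl3 control and 1 was lower, beside 67.8% of all genes called, 33.6% higher and 34.1% lower (edgeR, adjusted p under 0.05). The members' median log2 fold change was 1.47 against −0.09 for all genes, a gap of 1.56. Scaling moves all genes alike and so can hardly change this gap. The gap was 1.27 with a minimum count of 30 and 2.04 without the filter on low counts. Of the 55 higher calls, 45 were kept in all 18 alternatives. This comparison shares its libraries with those above, so their values are only set side by side. The lines were also apart in the markers given above, and their cells, growth and library batches cannot be told apart from the genotype of the line.

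The median log2 fold change was 1.87 for H2A, 1.67 for H2B, 1.44 for H1, 0.97 for H4 and 0.28 for H3, and with raw totals 1.42, 1.21, 0.99, 0.52 and −0.18, so that the direction of H3 depended on the scaling; differences between types were not tested. Among abundant genes, Hist2h2ab stood at 55.4 and 53.5 CPM in Mettl14 control and at 10.4 and 10.5 in Mettl3 control (2.38 ± 0.08, adjusted p = 8.0e-57). Hist1h2ac stood at 123.2 and 131.3 CPM against 27.6 and 25.2 (2.27 ± 0.05), Hist1h2bb at 57.0 and 59.1 against 11.5 and 11.4 (2.35 ± 0.08), and Hist1h1a at 431.3 and 445.5 against 99.3 and 105.8 (2.1 ± 0.03). The H3 gene Hist1h3d lay close in both, at 34.4 and 39.3 CPM against 32 and 29.7 (0.26 ± 0.07, adjusted p = 0.00099), and its sign turned with raw totals (−0.19). Hist1h3c was the H3 gene farthest apart, at 20.2 and 19.6 CPM against 8.8 and 10.4 (1.05 ± 0.11). The lower member was Hist1h4i, at 12 and 10.8 CPM against 15.0 and 12.2 (−0.26 ± 0.12, adjusted p = 0.041), a call that ended in 11 of 18 alternatives, among them the fits without any 1 library other than Mettl3 control replicate 2.

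Shares within the histone total need no scaling factor. H3 genes took 5.58% and 5.86% of histone counts in the Mettl14 control libraries, 6.63% and 6.77% in Mettl14 CKO, 11.1% and 11.8% in Mettl3 control, and 12.4% and 12.5% in Mettl3 CKO. H2A genes took 17.8% and 17.9% in Mettl14 control and 12.4% and 13.2% in Mettl3 control. No group overlapped another in its H3 share.

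**Figure D5:**
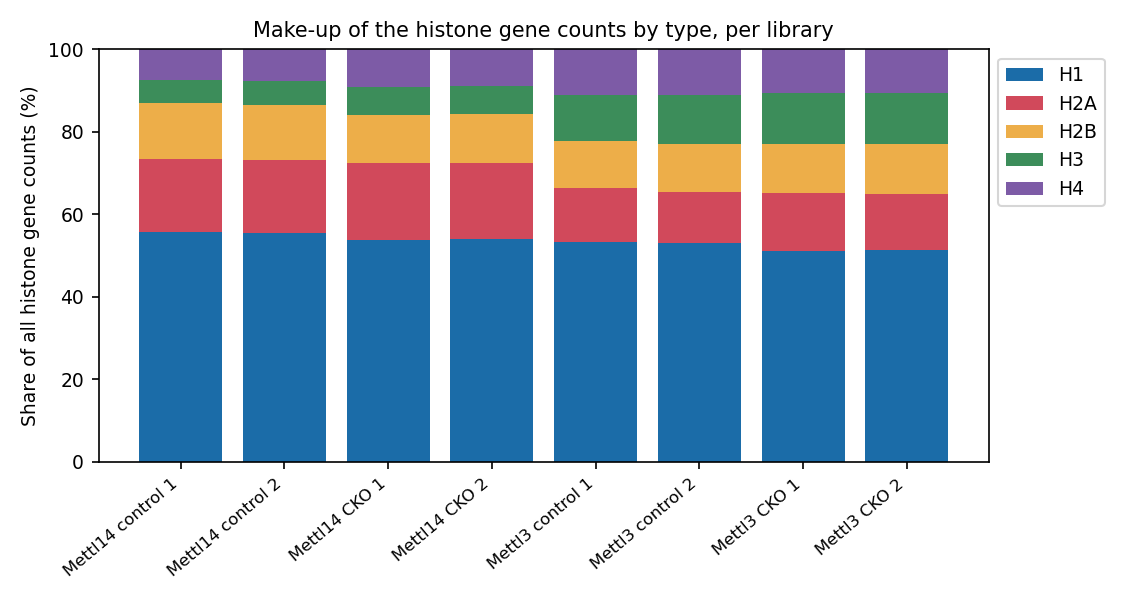
Share of each histone type, in percent of all counts on the 67 histone genes, for each of the 8 libraries. H1 takes over 50% in every library, and the H3 band widens from 5.58% in Mettl14 control to 12.5% in Mettl3 CKO.

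One member was seen almost only in the Mettl14 lines. Hist1h4m, an H4 gene, had 73 and 83 counts in Mettl14 control, 73 and 70 in Mettl14 CKO, 1 and 1 in Mettl3 control, and 2 and 1 in Mettl3 CKO; no fold is given at such counts. This gene is uncertain, since 11% of its words of 75 bases occur in no other gene, with any overlapping gene not counted as other. The testis histone genes were low throughout: Hist1h2ba, the testis H2B, had 19 and 16 counts in Mettl14 control and 0 and 4 in Mettl3 control, and Hist1h2aa, the testis H2A, had 29 and 33 against 10 and 10. The 12 spermatid markers summed to 3.24 to 6.03 CPM in all libraries.

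Many histone genes are near copies, so reads can be shared between them or lost, and how such reads were counted is not given in the sources used here. A measure of this is the share of a gene's words of 75 bases found in no other gene. Genes that overlap it at its own place were not counted as other genes. The share had a median of 99.25% for H1, 75.4% for H4, 63.25% for H2B, 47.65% for H3 and 32% for H2A. In 27 members shared words outnumbered their own. Of the genes that kept their Mettl14 calls, Hist1h1c (93.3%), Hist1h2be (95.2%), Hist1h2bm (83.1%) and Hist2h2ac (80.5%) had mostly their own words, while Hist1h2af (29.5%), Hist1h2ag (22.4%) and Hist1h2ai (10.7%) did not and are uncertain as single genes. All 18 H2A genes overlap an annotated gene on the opposite strand, and the strand setting of the counting is not known here. Gene models also differ: between the controls, the 22 tested members whose model runs over 200 bases past the stop codon had a median of 0.92, against 1.57 for the 26 with shorter ends and 1.58 for the 15 with none.

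The other genes of the pathway are counted here with TMM scaling, and some counts with other scalings are added. Counts also moved where no other scaling is stated. For example, the S phase markers lower in Mettl14 CKO numbered 18 with RLE and 14 with upper-quartile scaling. Of all genes tested, 22.4% were lower and 18% higher in Mettl14 CKO, 5.78% lower and 15.1% higher in Mettl3 CKO, and 34.1% lower and 33.6% higher in Mettl14 control than in Mettl3 control. The list for histone pre-mRNA 3′ processing also holds genes with wider roles in RNA, such as Snrpf, Ncbp1, Srrt and Fip1l1. Its counts are therefore not those of the histone-specific factors alone. Of its 22 tested genes, 13 were lower and 0 higher in Mettl14 CKO (9 and 6 with raw totals). The called genes with the smallest p there were Fip1l1, Snrpf and Srrt. Between the controls, 17 were higher and 2 lower in Mettl14 control than in Mettl3 control (14 and 4 with raw totals). In Mettl3 CKO, 4 were higher and 3 lower, but 0 were higher and 10 lower with upper-quartile scaling, 0 and 6 with raw totals, and 0 and 2 with DESeq2. Slbp, the stem-loop binding protein, stood at 113.8 and 111.9 CPM in Mettl14 control and, in its CKO, at 84.8 and 83.4; it stood at 47.9 and 40.7 in Mettl3 control and at 43.3 and 41.8 in Mettl3 CKO. It fell with loss of Mettl14 (−0.42 ± 0.05, adjusted p = 4.2e-14) and was not called with loss of Mettl3 (−0.06 ± 0.06). Lsm11, a U7-specific ring subunit, lay between 6.0 and 9.6 CPM in all libraries and was called in no comparison. Casp8ap2, whose product FLASH works in 3′ end processing, fell from 403.1 and 402.1 CPM to 311.9 and 318.8 in Mettl14 CKO (−0.35 ± 0.03, adjusted p = 9.3e-22).

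Of 19 genes of the histone locus body and histone transcription, 11 were lower and 1 higher in Mettl14 CKO (6 and 8 with raw totals). In Mettl3 CKO, 4 were higher and 1 lower (1 and 7 with upper-quartile scaling, 2 and 5 with raw totals). Between the controls, 16 were higher and 2 lower (12 and 3 with upper-quartile scaling, 11 and 6 with raw totals). Npat, the coactivator of histone transcription, stood at 112.1 and 120.1 CPM in Mettl14 control, against 112.6 and 119.9 in its CKO (0.00 ± 0.04), and at 76.8 and 78.6 in Mettl3 control. Coil, which encodes the Cajal body protein coilin, fell from 459.1 and 453.8 CPM to 285.5 and 285.2 in Mettl14 CKO (−0.68 ± 0.03). Of 20 genes of histone mRNA decay, 15 were lower and 1 higher in Mettl14 CKO (9 and 4 with raw totals). In Mettl3 CKO, 3 were higher and 1 lower (1 and 2 with raw totals). Between the controls, 16 were higher and 1 lower (13 and 6 with raw totals). Upf1, a helicase that acts with SLBP in this decay, fell from 176.3 and 180.0 CPM to 106.4 and 108.0 in Mettl14 CKO (−0.73 ± 0.04). Coil and Upf1 were also called in Mettl3 CKO.

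Of 11 tested genes of replication-independent variants, 9 were lower and 1 higher in Mettl14 CKO (7 and 2 with raw totals). In Mettl3 CKO, 1 was higher and 1 lower (0 and 4 with raw totals). Between the controls, 9 were higher and 0 lower (6 and 3 with raw totals). In Mettl14 CKO, H2afz, the H2A.Z gene, fell from 583.9 and 585.3 CPM to 415.7 and 418.6 (−0.49 ± 0.04). H3f3b, an H3.3 gene, was not called there (0.07 ± 0.03). Of 24 histone chaperone genes, 19 were lower and 2 higher in Mettl14 CKO (18 and 5 with raw totals). In Mettl3 CKO, 6 were higher and 3 lower (2 and 8 with raw totals). Between the controls, 21 were higher and 3 lower (15 and 3 with raw totals). Nasp, the H1 and H3-H4 chaperone, fell from 1418 and 1380.5 CPM to 830.1 and 805.1 in Mettl14 CKO (−0.78 ± 0.02), and it was also called in Mettl3 CKO.

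Of 20 S phase markers, 16 were lower and 0 higher in Mettl14 CKO (9 and 7 with raw totals), and 20 were higher and 0 lower in Mettl14 control than in Mettl3 control (17 and 0 with raw totals). In Mettl3 CKO, 9 were lower and 1 higher, against 15 and 0 with upper-quartile scaling and 12 and 0 with raw totals. Their summed level was 4654 to 4716 CPM in Mettl14 control, 3983 in both Mettl14 CKO libraries, 2449 to 2510 in Mettl3 control and 2200 to 2213 in Mettl3 CKO. In Mettl3 CKO the S phase markers had a median of −0.10 while the histone genes had 0.12. The part of cell cycle phase in the histone results was not tested.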

How the data were processed

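Nuclear RNA of 8 libraries was analysed from the deposited raw counts of reads per gene. The submitters' processing notes name HISAT2 2.1.0, HTSeq, Trimmomatic 0.38 and CASAVA, and the build mm10. The annotation release, the strand setting and what was done with multi-mapped reads: not given in the sources used here. Gene IDs without version were matched to GENCODE M21 (54409 of 54446). Groups and replicate numbers came from the sample titles.

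edgeR 4.0.16 in R 4.3.3 was run with filterByExpr (minimum count 10; 21782 genes), TMM scaling and robust quasi-likelihood tests in 1 fit with 4 group means. Genes were called at an adjusted p (Benjamini-Hochberg, all genes) under 0.05. CPM use TMM-scaled totals; log2 fold changes carry standard errors. The steps were run on simulated data with a larger spread and far fewer changed genes than here. Such data cannot test how the scaling behaves in these libraries. Libraries of a group correlated at r of 0.996 to 0.997 in log2 CPM and differed beyond sampling noise (chi-square from 1.43 to 2.08 per degree of freedom); each counts as its own sample.

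Members and lists were chosen with earlier results of these data known. Members named are, per type, the 3 most abundant and, per comparison, the called members with the highest and lowest fold change, plus testis members; others were named after their values were seen. From the other lists, up to 3 called genes with the smallest p, with Slbp, Npat and Lsm11, could be named; H3f3b was chosen after its values were seen. Alternatives were RLE and upper-quartile scaling, TMM without histones, no filter, a minimum count of 30, DESeq2 1.42.0, limma-voom (limma 3.58.1), only the libraries compared, leaving out each library and a replicate block; raw library totals were added after seeing the data. An exact two-sided permutation test of 2 against 2 cannot go below p = 0.333, so summed levels were not tested; for those, raw totals were planned. Total counts ran from 17235889 to 20086128.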

Additional observations from a re-analysis of the deposited data

Results flagged for a closer look

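The Mettl14 change and the Mettl3 change differed, by edgeR's interaction contrast, for 24 members, of which 21 were below and 3 above. For the members named by rule, the Mettl14 change minus the Mettl3 change on the log2 scale was as follows, with 2 libraries in each of the 4 groups. In H1 it was −0.73 for Hist1h1c, −0.24 for Hist1h1a and −0.17 for Hist1h1d. In H2A it was −1.32 for Hist2h2ac, −0.85 for Hist1h2ak, −0.50 for Hist2h2ab and 0.47 for Hist1h2ah. In H2B it was −1.02 for Hist1h2bm, −0.73 for Hist1h2be, −0.69 for Hist1h2bb, −0.66 for Hist1h2bg and −0.35 for Hist1h2bn. In H3 it was −0.73 for Hist1h3b, −0.62 for Hist1h3i, −0.51 for Hist1h3c, −0.24 for Hist1h3d and 0.45 for Hist1h3g. In H4 it was −0.54 for Hist1h4f and 0.86 for Hist1h4b. Of the 24 calls, 10 were kept in all 17 alternatives, and 12 kept call and direction with raw library totals.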

How the results depend on the processing

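The size, and in places the direction, of the family's median depended on the scaling. Of the member calls, 14 of 37 (Mettl14 CKO), 1 of 14 (Mettl3 CKO), 10 of 24 (difference of the changes) and 45 of 56 (controls) were kept in all alternatives. Raw library totals, chosen after seeing the data except for summed levels, shifted the median of all genes by 0.20, −0.08, 0.29 and −0.45 in these comparisons, and upper-quartile scaling by 0.04, −0.11, 0.16 and −0.22. In Mettl14 CKO, DESeq2 called 4 members higher, and with raw totals 10 were lower and the median was 0.034. In Mettl3 CKO, the higher calls were 5 with RLE scaling, 1 with upper-quartile scaling, 21 without a filter, 3 with a minimum count of 30, 3 with DESeq2, 2 with only the libraries compared and 1 with raw totals. The lower calls there were 4 with upper-quartile scaling, 0 without a filter (edgeR) and 1 with DESeq2, and the median was 0.0042, 0.22, 0.050 and 0.032 with upper-quartile scaling, no filter, a minimum of 30 and raw totals. For the difference, higher calls were 7 with upper-quartile scaling, 1 without a filter, 7 with a minimum of 30, 1 with DESeq2 and 14 with raw totals, which gave 9 lower calls. Its median was −0.083, −0.095 and 0.049 with upper-quartile scaling, a minimum of 30 and raw totals. Between the controls, lower calls were 0 with RLE scaling, no filter, DESeq2 and limma-voom, 4 with upper-quartile scaling and 7 with raw totals, and the median was 1.25, 1.24 and 1.02 with upper-quartile scaling, a minimum of 30 and raw totals. The log2 ratio of summed levels was −0.28 with RLE, −0.20 with upper-quartile, −0.042 with raw totals and −0.31 without the most abundant member of each type for Mettl14, −0.039 with upper-quartile and −0.0082 with raw totals for Mettl3, and 1.23 and 1.00 for the controls. Among values called in either fit, the sign turned with raw totals for Hist1h1d in Mettl14 CKO (0.066), for the difference of Hist1h1d (0.12), Hist1h1a (0.045), Hist1h1b (0.25), Hist1h2ac (0.28), Hist1h2an (0.22) and Hist1h3d (0.045), and between the controls for Hist1h3e (−0.0090), Hist1h3d (−0.19), Hist1h3b (−0.051) and Hist1h3g (−0.24); with upper-quartile scaling it turned for Hist1h1d in Mettl3 CKO (−0.083). The scaling factor or filter is what differs in these fits; beyond that the cause was not tested. Leaving out 1 library gave 6 to 12 higher and 18 to 26 lower calls and a median of −0.19 to −0.14 for Mettl14 CKO, with 6 without Mettl14 CKO replicate 2. It gave 8 to 14 higher, 1 to 2 lower and 0.14 to 0.19 for Mettl3 CKO, with 8 without Mettl3 control replicate 2. It gave 1 to 4 higher (1 without Mettl14 control replicate 1), 21 to 24 lower and −0.31 to −0.23 for the difference, and 53 to 56 higher, 0 to 1 lower and 1.41 to 1.53 for the controls. Summed ratios ran from −0.27 to −0.23, 0.093 to 0.12 and 1.47 to 1.52. The main fit lay below these ranges in the Mettl3 CKO median (0.117) and in the summed ratios for Mettl3 (0.074) and the controls (1.45). Each fit without a library also filtered and scaled anew, so its changes cannot be laid to that library alone. Deviations of same-numbered libraries correlated at −0.03 to 0.11 over 10099 genes. No strong pairing by number was seen, but such values cannot exclude a weak one. A replicate block kept all 37, 14, 24 and 56 calls.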

Other observations

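The pseudogene Hist1h2aj, left out by the protein-coding rule, was tested in the same fit. Its libraries had 4.2 and 3.5 CPM for Mettl14 control and 4.9 and 5.9 for its CKO, then 3.6 and 3.7 in Mettl3 control and 2.8 and 3.0 in Mettl3 CKO. It was called higher in Mettl14 CKO (log2 fold change 0.50 ± 0.20, adjusted p = 0.036 by edgeR), a call that ended with DESeq2, and was not called between the controls (0.06 ± 0.21). Outside the histone clusters, the stem-loop search also met H2afx, a replication-independent gene known to make both a stem-loop and a polyadenylated RNA, with 126.8 and 119.0 CPM in control libraries and 108.3 and 108.1 in CKO libraries for Mettl14 (log2 fold change −0.18 ± 0.04).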
